A study of Mus musculus with 6 samples.

Results

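The miRNAs described here are the miR-200 family, with both arms of miR-200a and miR-200b and the 3p arms of miR-200c, miR-141 and miR-429, together with miR-31-5p and miR-203-3p. They were chosen by name, as miRNAs of bile duct and other epithelia, and all 9 names were present among the 1907 distinct mature miRNAs of the deposited table. Mature miRNAs were counted by small RNA sequencing in whole liver of female C57BL/6N mice (3 libraries) and male C57BL/6N mice (3 libraries). All animals were 12 weeks old, in normal health, untreated and fed chow, and are labelled as littermates; the sources used here do not say which of them share a litter. The study concerns SAB, a protein of the mitochondrial outer membrane, and liver injury that differs by sex, and these libraries address how the sexes differ in uninjured liver.

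The miR-200 family keeps epithelial cells epithelial. Its members repress Zeb1 and Zeb2, transcription factors that silence E-cadherin, and both factors in turn repress the miR-200 genes. In liver, miR-200 miRNAs are known from cholangiocytes, the epithelial cells that line bile ducts, while hepatocytes carry miR-122 as their dominant miRNA. A second kind of epithelial miRNA is represented by miR-203, known in skin for repressing p63, and by miR-31, known from keratinocytes and other epithelia.

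The mature sequences show why the family is split into a pair of targeting groups. They are given 5′ to 3′ from RefSeq (GRCm38.p6), with the seed, bases 2 to 8, in capitals; all 9 matched by name and position.
miR-200a-3p: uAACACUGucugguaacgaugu
miR-141-3p: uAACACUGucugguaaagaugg
miR-200b-3p: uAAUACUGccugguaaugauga
miR-200c-3p: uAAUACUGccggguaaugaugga
miR-429-3p: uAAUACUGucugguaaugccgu
miR-200a-5p: cAUCUUACcggacagugcugga
miR-200b-5p: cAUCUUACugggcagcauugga
miR-203-3p: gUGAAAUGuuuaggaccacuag
miR-31-5p: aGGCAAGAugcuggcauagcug
Counted from the 5′ end, miR-200a-3p and miR-200b-3p differ within the seed only by C4U, and miR-141-3p and miR-200c-3p likewise only by C4U. Across the loci, miR-200a-3p and miR-141-3p share the seed and differ at 2 of 22 bases (C17A and U22G), and miR-200b-3p and miR-200c-3p differ at 2 of 22 compared bases (U11G and A22G). Reads with an error at such a base could be counted for the paralog, and the sources used here do not say how the authors assigned such reads, so the split within a seed group is uncertain. No other miRNA of the table that RefSeq lists had either 3p seed, and none shared the seed of miR-203-3p or of miR-31-5p.

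The genes lie at 4 places. In mm10, the hairpins of miR-200b, miR-200a and miR-429 lie within 1846 bp on chromosome 4 (156053905 to 156055750, minus strand), inside an intron of Ttll10 on the same strand; the miR-429 hairpin also overlaps an exon of the non-coding Gm13648. The hairpins of miR-200c and miR-141 lie within 477 bp on chromosome 6 (124717914 to 124718390, minus strand), in an intron of the non-coding Gm15884; the miR-141 hairpin also overlaps an exon of Gm29008 on the same strand. The miR-31 hairpin (chromosome 4, 88910557 to 88910662, minus strand) overlaps an exon of a long non-coding RNA, and the miR-203 hairpin (chromosome 12, 112130880 to 112130955, plus strand) overlaps no other gene in GENCODE M21.

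Library totals were 5756418, 3506853 and 3285249 counts in females and 6426337, 4617647 and 16444674 counts in males, so 1 count stood for 0.0608 to 0.304 CPM (counts per 1000000 counts of the library). Levels below are CPM on library sizes adjusted by the TMM method of edgeR. The 9 miRNAs took 0.317%, 0.350% and 0.332% of the counts in females and 0.387%, 0.349% and 0.347% in males. Of the other cell types, summed hepatocyte markers (5 miRNAs, chiefly miR-122-5p) ranged from 395000 to 398000 CPM in female livers and from 421000 to 466000 CPM in male livers, and 2 of the 5 had a log2 fold change below 0. Summed stromal markers (4 miRNAs) ranged from 8630 to 11167 CPM in female livers and from 11731 to 12535 CPM in male livers, and all 4 were below 0. Summed leukocyte markers (4 miRNAs) ranged from 3991 to 4557 CPM in female livers and from 2870 to 4420 CPM in male livers; none was below 0, and 1 of the 4, miR-223-3p of myeloid cells, passed the threshold (log2 fold change 0.62, adjusted p = 0.0467, edgeR). The part of these cell types in the results on the epithelial miRNAs was not tested. Endothelial markers (2 miRNAs) overlapped between the sexes. In the titles the males carry the lower sample numbers and the females the higher ones, so the order of handling, if it followed those numbers, and sex cannot be told apart.

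The most abundant of the epithelial miRNAs was miR-203-3p, and within the miR-200 family it was miR-200a-3p. Over the 6 libraries, mean levels were 1704 CPM for miR-203-3p, 897 for miR-31-5p, 544 for miR-200a-3p, 144 for miR-200b-3p, 78.8 for miR-429-3p, 76.5 for miR-141-3p and 33.1 for miR-200c-3p. The minor arms miR-200a-5p and miR-200b-5p averaged 2.43 and 1.92 CPM. Neighbours in this order did not overlap over the libraries, except miR-429-3p with miR-141-3p and miR-200a-5p with miR-200b-5p: miR-429-3p had the higher count of its pair in 3 of 6 libraries. These mature miRNAs are 22 or 23 bases long, so length hardly enters, but the efficiency of library making differs between sequences and the order is one of counts. Among the 370 miRNAs tested, miR-203-3p ranked 44, miR-31-5p 55, miR-200a-3p 66 and miR-200c-3p 172 by mean level.

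**Figure D1:**
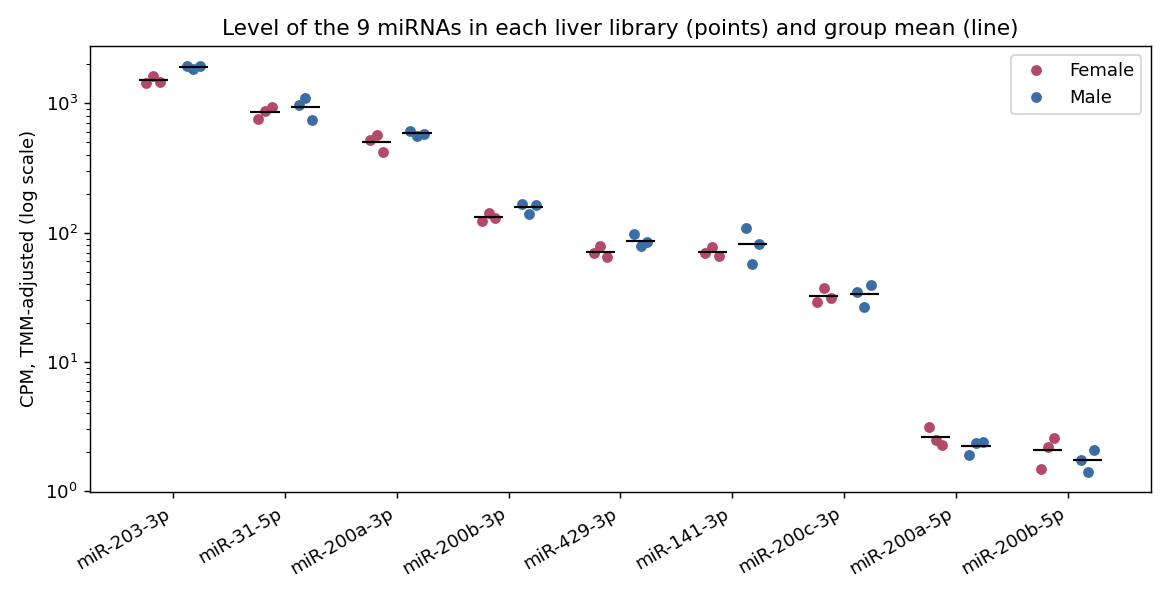
Level of each of the 9 miRNAs (CPM on TMM-adjusted library sizes, log scale) in 3 female and 3 male libraries, with the line at the group mean. The order runs from miR-203-3p at a mean of 1704 CPM down to miR-200b-5p at 1.92 CPM, and only for miR-203-3p do the female and male libraries separate.

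The make-up of the family was close in all libraries. Of the counts of its 5 3p arms, miR-200a-3p held 62.0 ± 2.68% in females and 62.1 ± 2.52% in males, and miR-200b-3p 16.3 ± 1.60% in females and 16.6 ± 0.432% in males (SD, n = 3 each). The chromosome 4 locus gave 87.2 ± 0.764% of these counts in females and 87.9 ± 2.21% in males. Grouped by seed, miR-200a-3p and miR-141-3p together held 70.8 ± 2.29% in females and 70.7 ± 0.818% in males, so the AACACUG seed was counted more often than AAUACUG in every library. The share of miR-141-3p varied among males, at 10.6%, 6.61% and 8.55% (exact binomial 95% interval over all 6 libraries pooled, 8.49 to 9.08%, counting error only).

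**Figure D2:**
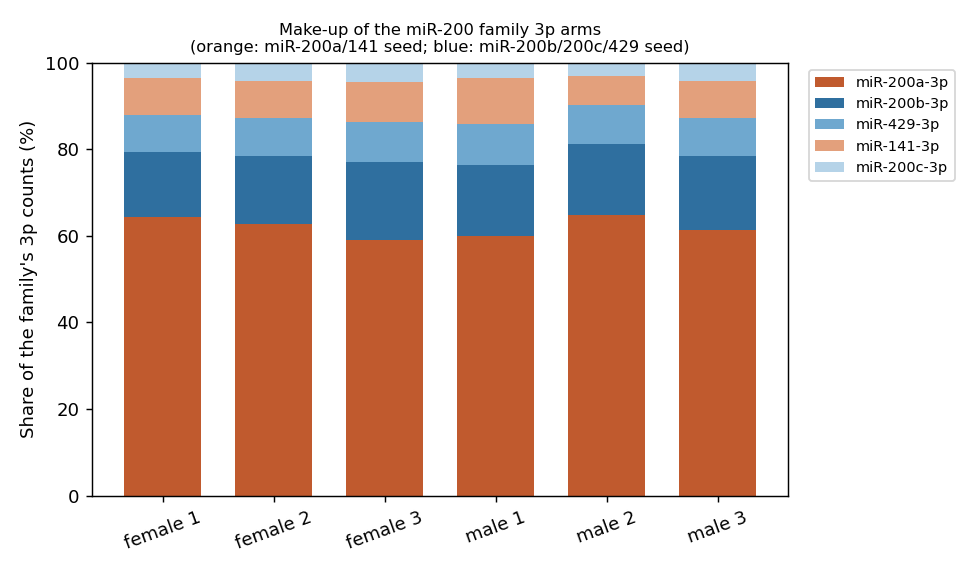
Share of each 3p arm in the summed 3p counts of the miR-200 family, in %, per library, with female libraries on the left. Orange shades share the miR-200a and miR-141 seed and blue shades the seed of miR-200b, miR-200c and miR-429; miR-200a-3p holds 59.0 to 65.0% in every library.

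Each hairpin was counted almost wholly from 1 arm. Pooled over the libraries, the minor arm made up 0.433% of both arms for miR-200a (exact binomial 95% interval 0.350 to 0.528%), 1.27% for miR-200b (1.0 to 1.59%), 0.476% for miR-141 (0.267 to 0.784%), 0.280% for miR-429 (0.128 to 0.531%), 1.44% for miR-31 (1.32 to 1.57%) and 0.151% for miR-203 (0.124 to 0.183%). For miR-31 the share was 1.18% in females (0.990 to 1.40%) and 1.57% in males (1.41 to 1.74%), and these intervals did not overlap. By library, however, it was 1.01%, 1.40% and 1.21% in females and 1.25%, 0.790% and 2.03% in males, so the females lay within the male range and the highest share was that of male replicate 3. These intervals reflect counting error alone and leave out the spread between libraries. The sources used here do not say whether PCR copies of a molecule were counted as separate reads. If they were, the intervals are too narrow. For miR-200c the 5p arm had 3 counts in all, every one in the deepest library, male replicate 3. Zero counts there allow up to 0.496, 0.830 and 0.855 CPM in the female libraries and up to 0.475 and 0.708 CPM in male replicates 1 and 2 (3 counts per library).

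Levels of the miR-200 family did not pass the test between the sexes, with small negative estimates for the 3p arms. For miR-200a-3p, females had 523, 565 and 419 CPM and males 613, 559 and 583 CPM. The groups overlapped through female replicate 2, and female replicate 3 was the lowest library. Its log2 fold change, female over male, was -0.22 (SE 0.14, adjusted p = 0.477, quasi-likelihood test of edgeR, adjusted by Benjamini-Hochberg over all tested miRNAs), and the 95% interval of the fold ran from 0.690 to 1.07. For miR-200b-3p, females had 123, 142 and 129 CPM and males 167, 140 and 162 CPM, with male replicate 2 inside the female range. The log2 fold change came to -0.26 (SE 0.16, adjusted p = 0.466), with an interval of the fold from 0.657 to 1.07. The third miRNA of this locus, miR-429-3p, had 69.4, 78.6 and 65.0 CPM in female livers and 97.0, 78.4 and 84.5 CPM in male livers. Here male replicate 2 lay just below female replicate 2, and the log2 fold change was -0.29 (SE 0.18, adjusted p = 0.449; fold interval 0.625 to 1.07).

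At the other locus, miR-141-3p stood at 69.7, 77.0 and 65.9 CPM in female livers and at 108, 56.9 and 81.2 CPM in male livers. The males thus held both its highest and its lowest library, and the log2 fold change of -0.22 (SE 0.23, adjusted p = 0.697; fold interval 0.607 to 1.22) came to 0.00057 without male replicate 1. For miR-200c-3p, females had 29.2, 37.4 and 31.1 CPM and males 34.7, 26.7 and 39.3 CPM. The female libraries lay within the male range, with a log2 fold change of -0.06 (SE 0.22, adjusted p = 0.935; fold interval 0.690 to 1.34) that turned positive in 3 of the 15 alternatives. Summed over the family's 3p arms, levels were 808 ± 95.4 CPM in female livers and 944 ± 80.0 CPM in male livers (SD, n = 3 each), and the groups overlapped. In whole liver, fewer cells of a type and less RNA per cell cannot be told apart.

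Of the minor arms, miR-200a-5p had 3.14, 2.49 and 2.28 CPM in female livers and 1.90, 2.36 and 2.41 CPM in male livers (log2 fold change 0.26, adjusted p = 0.751), and miR-200b-5p had 1.49, 2.21 and 2.57 CPM in female livers and 1.74, 1.42 and 2.10 CPM in male livers (0.12, adjusted p = 0.963). Both had positive estimates, opposite to their 3p arms, and groups that overlapped on TMM-adjusted CPM. They rest on 8 to 19 counts per library in females and on 6 to 38 in males.

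The clearest separation was that of miR-203-3p, although it did not pass the threshold. Females had 1435, 1617 and 1462 CPM and males 1937, 1845 and 1927 CPM, so every female library lay below every male library, a pattern that 11.1% of the 370 tested miRNAs showed. The means were 1505 ± 98.3 CPM in female livers and 1903 ± 50.1 CPM in male livers (SD, n = 3 each), a level 20.9% lower in females. The log2 fold change was -0.34 (SE 0.11; unadjusted p = 0.0102, adjusted p = 0.106, edgeR), and the unadjusted 95% interval of the fold ran from 0.669 to 0.935. Groups also did not overlap on total counts alone, at 1510, 1666 and 1561 CPM in female livers and 1904, 1692 and 1844 CPM in male livers. On that scale miR-200a-5p separated too, with females higher (3.30, 2.57 and 2.44 against 1.87, 2.17 and 2.31 CPM). The share of all tested miRNAs that separated on that scale was not counted. With upper-quartile factors in place of TMM the adjusted p of miR-203-3p was 0.0365, and with no scaling factor 0.320 (edgeR). Over all 15 alternatives it ranged from 0.0365 to 0.399. The other arm of the hairpin, miR-203-5p, stood at 1.98, 1.94 and 2.28 CPM in female livers and 2.69, 2.60 and 3.24 CPM in male livers (log2 fold change -0.50, adjusted p = 0.469, edgeR). Its groups did not overlap either, but they rest on 12, 7 and 8 counts in females and on 17, 11 and 51 in males. The other listed marker of squamous epithelium, miR-205-5p, was low, with 9, 11 and 9 counts in females and 7, 5 and 31 counts in males. These were 1.49, 3.04 and 2.57 CPM in female livers and 1.11, 1.18 and 1.97 CPM in male livers. Its mean was thus higher in females (2.37 against 1.42 CPM), opposite to miR-203-3p. The groups of miR-205-5p overlapped, and it did not pass the filter on low counts.

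For miR-31-5p, females had 761, 874 and 931 CPM and males 973, 1098 and 747 CPM. Male replicate 3 was the lowest library and male replicate 2 the highest, and the log2 fold change was -0.13 (SE 0.16, adjusted p = 0.723; fold interval 0.719 to 1.15). It came to -0.0055 without male replicate 2 and to -0.28 without male replicate 3. Its other arm, miR-31-3p, had 7.76, 12.5 and 11.4 CPM in female livers and 12.3, 8.74 and 15.5 CPM in male livers (log2 fold change -0.27, adjusted p = 0.697). Male replicate 3 was the highest library for this arm and the lowest for miR-31-5p.

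All 9 miRNAs passed the filter on low counts, and 0 of them passed the adjusted threshold of 0.05 in edgeR, where 6.76% of the 370 tested miRNAs did; DESeq2 and limma-voom called 0 too. At an unadjusted p under 0.05 there was 1 of 9, miR-203-3p, against 18.1% of all tested. Groups that did not overlap were found for 1 of 9, against 21.6% of all tested. Of the 9, the 7 main arms had negative estimates, with a median of -0.22, and the 2 minor arms of miR-200a and miR-200b positive ones (0.26 and 0.12). Of all tested miRNAs 51.9% were negative, with a median of -0.01. The main arms are not 7 separate observations, since 3 come from the chromosome 4 miR-200 locus and 2 from the chromosome 6 locus. With no scaling factor 5 of the 7 were negative, and the median of all tested miRNAs was 0.13; it was -0.10 under upper-quartile scaling. Relative to that median, the main arms stood at -0.21 with TMM, -0.22 with no scaling factor and -0.22 with upper-quartile factors. Scaling shifts all estimates nearly alike, so these 3 offsets had to be close and their likeness is no separate support. Over all 15 alternatives the offset ranged from -0.32, without male replicate 2, to -0.13, with no filter on low counts. No test was made over the list.

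**Figure D3:**
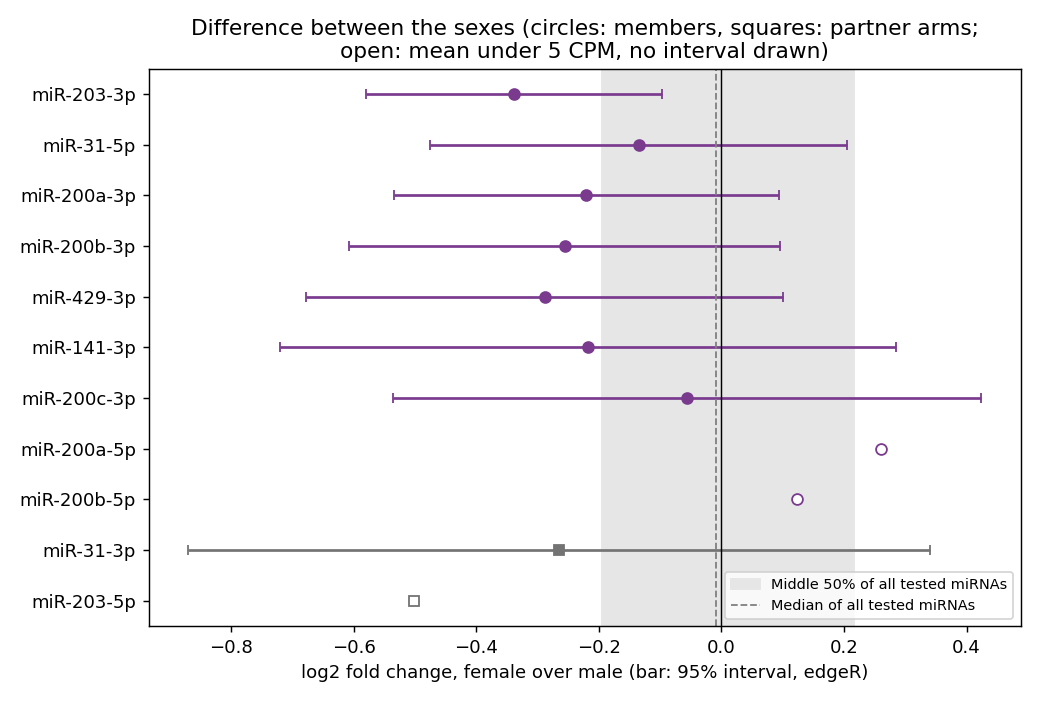
Log2 fold change, female over male, for the members (circles) and the partner arms miR-31-3p and miR-203-5p (squares), with 95% intervals from edgeR; miR-200a-5p, miR-200b-5p and miR-203-5p, with means under 5 CPM, are open symbols with no interval. The 7 main arms lie between -0.34 and -0.06, and of the intervals drawn only that of miR-203-3p stays below 0; the grey band spans the quartiles of all 370 tested miRNAs, from -0.20 to 0.22.

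The hepatocyte marker miR-122-5p had a log2 fold change of the same sign, -0.21 (adjusted p = 0.053, edgeR), and its own level was 315000, 316000 and 316000 CPM in female livers and 344000, 387000 and 361000 CPM in male livers. Its counts were deposited rounded to 3 digits, a step that can move these levels by up to 318 to 1426 CPM and the ratios to it by up to 0.0065 log2 units, so the spread among the females lies below what the file resolves. Set against miR-122-5p of the same library, a measure added after the data were seen and free of library size, miR-203-3p was 0.14 log2 units lower in females (-7.72 ± 0.0935 in females, -7.58 ± 0.124 in males; exact two-sided permutation p = 0.2, Benjamini-Hochberg adjusted 0.9 over 9 such ratios), and the groups overlapped. The same difference was -0.03 for miR-200a-3p (p = 1), -0.05 for miR-200b-3p (p = 0.8) and -0.08 for miR-429-3p (p = 0.7, exact permutation). The other 5 were positive, at 0.04 for miR-141-3p (p = 1), 0.08 for miR-31-5p (p = 0.7), 0.17 for miR-200c-3p (p = 0.6), 0.45 for miR-200b-5p (p = 0.3) and 0.46 for miR-200a-5p (p = 0.1, exact permutation). For miR-200a-5p the female libraries all lay above the male ones, and no adjusted value was below 0.9. An exact test of 3 libraries against 3 cannot go below 0.1. All 9 ratios share the same denominator, so each difference lies near the miRNA's own log2 fold change less that of miR-122-5p. The ratios therefore cannot test the part of miR-122-5p in the differences in CPM, and that part was not tested.

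Ratios between miRNAs of a locus differed between the sexes by less than the pooled spread of the libraries. The log2 ratio of miR-200a-3p to miR-200b-3p was 1.93 ± 0.20 in females and 1.91 ± 0.08 in males (SD, n = 3 each; exact two-sided permutation p = 1). That of miR-429-3p to miR-200b-3p was -0.89 ± 0.09 in females and -0.85 ± 0.08 in males (exact permutation p = 0.6), and that of miR-141-3p to miR-200c-3p 1.12 ± 0.11 in females and 1.26 ± 0.33 in males (exact permutation p = 0.6). The ratios of arms of miR-200a and miR-200b differed more, and those of the other hairpins were not compared in this way. For miR-200a the log2 ratio of 3p to 5p was 7.34, 7.75 and 7.43 in females and 8.28, 7.82 and 7.90 in males, a difference of -0.49 with no overlap (exact permutation p = 0.1, the smallest possible; adjusted 0.5 over 5 ratios). For miR-200b it was 5.93 ± 0.36 in females and 6.43 ± 0.15 in males, a difference of -0.50 (exact permutation p = 0.2, adjusted 0.5, n = 3 each). With few 5p counts the pooled minor-arm shares of miR-200a, 0.536% in females (exact 95% interval 0.376 to 0.742%) and 0.388% in males (0.296 to 0.499%), had overlapping counting intervals.

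Across the 6 libraries the 3 miRNAs of the chromosome 4 locus deviated from their means in similar ways. Likeness was measured as the root mean square difference of log2 CPM after centring each miRNA on its own mean, which describes these libraries and is not a test. The nearest of 369 other tested miRNAs to miR-200b-3p was miR-429-3p (0.069 log2 units), and the nearest to miR-429-3p was miR-200b-3p; the median over the 369 was 0.312 for miR-200b-3p. For miR-200a-3p, miR-429-3p was number 3 and miR-200b-3p number 8. The unlinked miR-203-3p was number 2 for miR-200b-3p (0.074), so closeness of this size was also seen between miRNAs of different chromosomes. The chromosome 6 locus held together less closely: miR-200c-3p was number 27 for miR-141-3p (0.213), which was high in male replicate 1 and low in male replicate 2. In the other direction, miR-141-3p was number 66 for miR-200c-3p. By this measure, miR-141-3p and miR-200c-3p were each nearer to some miRNAs of the chromosome 4 locus than to the other. The measure depends on the size of the deviations as well as their direction, and correlation between these miRNAs was not compared. In females miR-200c-3p rests on 177, 135 and 109 counts. For miR-141-3p, miR-429-3p was number 16 (0.191) and miR-200b-3p number 20 (0.202), and for miR-200c-3p, miR-200b-3p was number 21 (0.154). For comparison, miR-31-5p was number 173 for miR-141-3p (0.380), near its median of 0.392.

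**Figure D4:**
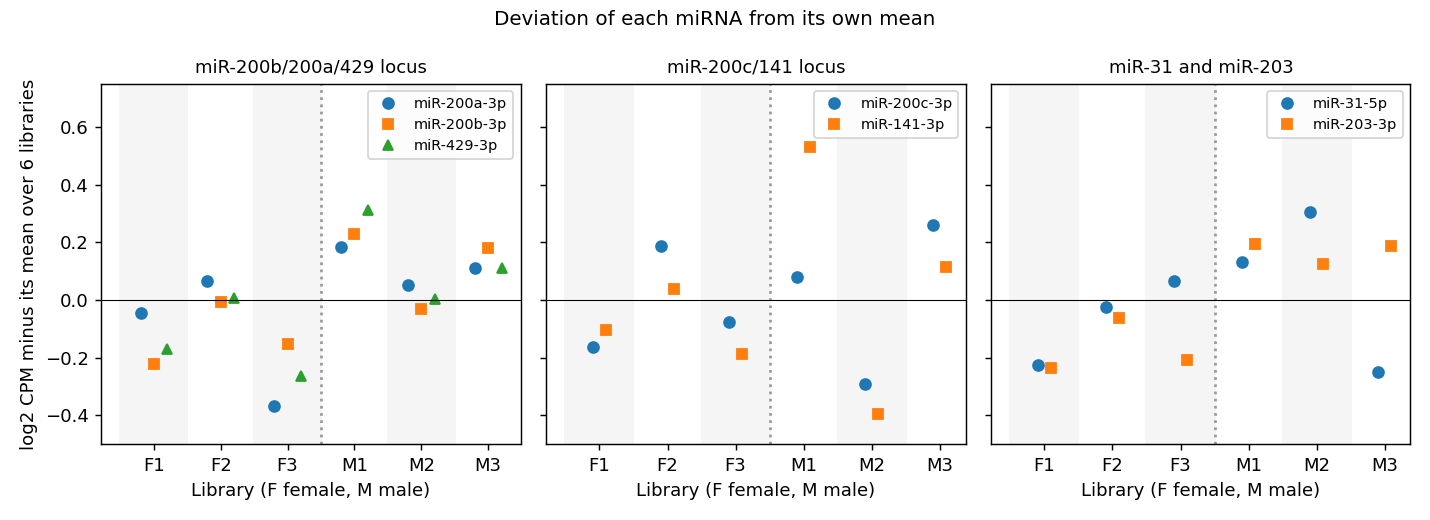
Log2 CPM of each miRNA minus its mean over the 6 libraries, by locus, with female libraries (F) left of male libraries (M). The 3 miRNAs of the chromosome 4 locus lie close to each other in each library, miR-141-3p reaches 0.53 in male replicate 1 and -0.40 in male replicate 2, and miR-203-3p is negative in all females and positive in all males.

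Outside the family, the miRNAs closest to the summed chromosome 4 locus were miR-145a-3p (0.069 log2 units), miR-30d-3p (0.091) and miR-125b-2-3p (0.097), of 361 compared with a median of 0.321. Closest to the summed chromosome 6 locus were miR-497a-5p (0.048), miR-29b-3p (0.091) and miR-542-3p (0.099), with a median of 0.374. Of these, miR-497a-5p stood at 116 ± 12.1 CPM in female livers and 126 ± 31.0 CPM in male livers (SD, n = 3 each), a spread among males like that of miR-141-3p, which was 70.8 ± 5.63 CPM in female livers and 82.2 ± 25.8 CPM in male livers. The coefficient of variation over the 6 libraries was 12.5% for miR-200a-3p, 12.4% for miR-200b-3p, 13.4% for miR-203-3p and 23.3% for miR-141-3p. Medians over miRNAs within 20 ranks of each in level were 15.3%, 15.9%, 10.2% and 19.4% in that order.

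Of the 5 partner arms analysed, 2 passed the filter, and 0 of these passed the threshold in edgeR, DESeq2 or limma-voom or at an unadjusted p under 0.05 in edgeR. The remaining ones were near 0: miR-141-5p had 3, 2 and 3 counts in females and 1, 1 and 5 counts in males, and miR-429-5p had 2, 0 and 1 counts in females and 2, 2 and 2 counts in males. Of 6 other epithelial miRNAs, 4 were tested and 1, miR-375-3p, known from pancreatic islets, passed higher in females. It had 4.79, 2.49 and 3.14 CPM in female livers and 1.42, 1.18 and 1.33 CPM in male livers, with no overlap (log2 fold change 1.43, SE 0.36, adjusted p = 0.0438, edgeR). That call was lost whichever library was left out, with no filter on low counts, and in DESeq2 and limma-voom; over its 14 alternatives the adjusted p ranged from 0.031 to 0.22. The other listed pancreas markers, miR-216a-5p and miR-217-5p, had at most 3 counts per library and were not tested. Their means were higher in males, at 0.147 against 0.310 CPM and 0.147 against 0.301 CPM. The cluster of miR-182-5p, miR-183-5p and miR-96-5p, known from sensory and other epithelia, had log2 fold changes of -0.39, -0.58 and -0.13. None of the cluster passed (adjusted p = 0.469, 0.294 and 0.854, edgeR). Of these, miR-182-5p was the most abundant, at 122, 238 and 137 CPM in female livers and 173, 242 and 235 CPM in male livers.

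The estimates for miR-203-3p and miR-200a-3p moved with scaling and with the libraries used, and stayed negative in all 15 alternatives. For miR-203-3p they ranged from -0.43 to -0.20, and for miR-200a-3p from -0.32 to -0.08.

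**Figure D5:**
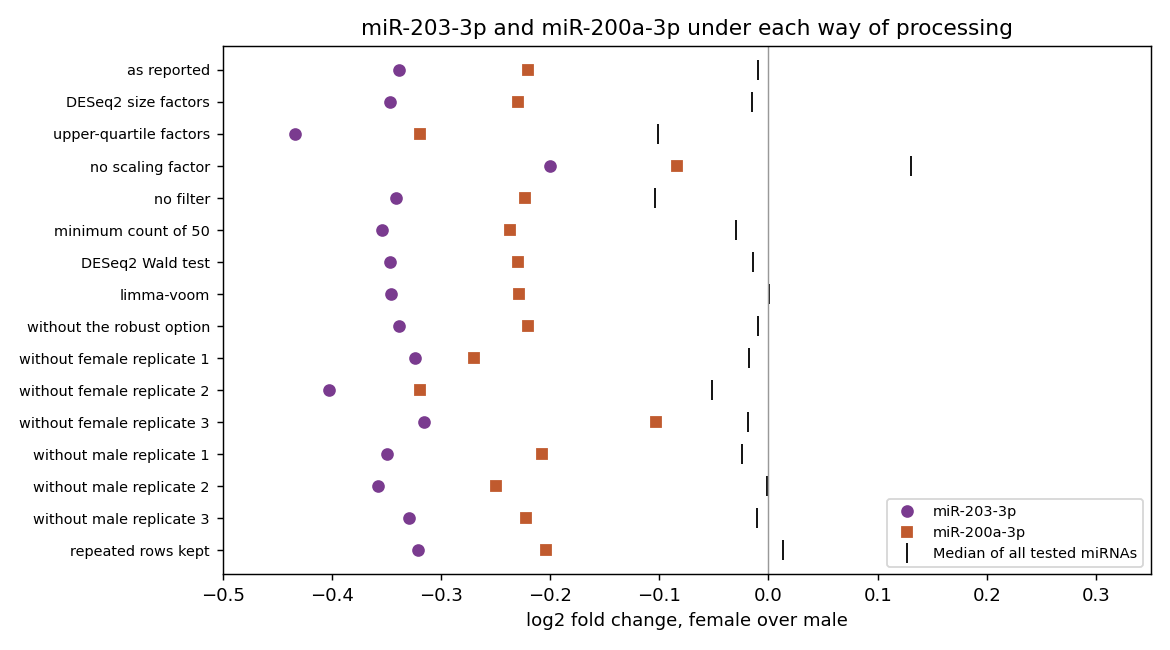
Log2 fold change, female over male, of miR-203-3p (circles) and miR-200a-3p (squares) as reported and under each of 15 alternatives, with the median of all tested miRNAs as a tick. Both lie to the left of the tick in each row, and the tick moves to 0.13 with no scaling factor and to -0.10 with upper-quartile factors. A change of scaling moves the tick and both estimates nearly alike.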

How the data were processed

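The authors deposited estimated counts per mature miRNA, without normalisation; 98.9% of values were whole with no tolerance, and all values of the 9 miRNAs were whole. The 8 values of 1000000 or more, 6 of them of miR-122-5p, were deposited rounded to 3 digits, which leaves library totals uncertain by up to 0.152%. The tools and build listed in the submitters' processing notes are Partek, Bowtie and mm10, with no versions or roles. Per the labels' protocols, library construction used a Qiagen miRNA kit; the sources used here do not say whether molecular identifiers entered the counts. Of 2045 rows, 138 exact repeats were left out, and counts were rounded. Positions were read with the stop as the base after the end, which matched RefSeq for all miRNAs printed.

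Samples were grouped by labelled sex; replicates were numbered in accession order and pair no animals. Females were compared with males in edgeR 4.0.16 (R 4.3.3): TMM, filterByExpr by group (minimum count 10, minimum total 15), robust quasi-likelihood test, no covariate, Benjamini-Hochberg adjustment over 370 miRNAs. The standard error is the log2 fold change over the root of F. Ratios used counts plus 0.5 and exact permutation tests in scipy 1.17.1. Log2 CPM for likeness used a prior count of 2, except for the summed loci, where none was added. DESeq2 1.42.0 and limma 3.58.1 were alternatives. The fit was tested on simulated data. No library pair was a duplicate (chi-square per degree of freedom at least 25.3). Named miRNAs were the members, their partner arms, 6 other epithelial miRNAs, and the 3 nearest to each miR-200 locus. The 2 names of miR-203b, also listed, were absent from the deposited counts. Members and lists were chosen with earlier results of these data known.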

Additional observations from a re-analysis of the deposited data

How the results depend on the processing

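No paired analysis was possible because the labels give no replicate numbers shared between the sexes. The count of 0 calls among the 9 miRNAs was 1 with upper-quartile factors (miR-203-3p, log2 fold change -0.43) and 0 in the other alternatives, 0 to 0 without a library. The minimum count of 50 removed miR-200a-5p and miR-200b-5p. The count of 25 calls over all tested miRNAs was 13 with the minimum count of 50, where fewer miRNAs were tested, and between 9 and 32 with any single library omitted (9 for female replicate 2, 10 for female replicate 3, 12 for male replicate 3). The balance of its calls was 12 higher and 13 lower with TMM, 13 and 7 with no scaling factor and 7 and 19 with upper-quartile factors. Estimates that changed sign belonged to miRNAs that did not pass. With no scaling factor they were miR-200c-3p (0.078), miR-31-5p (0.0087) and miR-96-5p (0.00061). When single libraries were left out, miR-200c-3p ranged from -0.19 to 0.077 (0.0011 for female replicate 1 and 0.077 for male replicate 3), miR-96-5p from -0.47 to 0.13, miR-31-5p from -0.28 to -0.0055, miR-200b-5p from -0.030 to 0.36 and miR-141-3p from -0.41 to 0.00057. Of 221 values of 15 miRNAs, 203 kept direction and side, 8 changed sign, 9 lost and 1 gained the threshold; all 9 were miR-375-3p. The 5 ratios moved by less than their spread in each alternative. Keeping repeated rows and the ratios to miR-122-5p were added after the data were seen. Scaling shifts all estimates nearly alike; for the other changes the cause was not tested. Depth limits the minor arms, which rest on 0 to 38 counts per library for the miR-200 family and on 7 to 51 for miR-203-5p.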
